A study of Saccharomyces cerevisiae with 74 samples.

Results

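Ded1 was compared directly between heat shock and glucose withdrawal, each sampled after 16 min. The members are the 3 CRAC libraries labelled Ded1 42C 16 min (numbers 60, 63 and 68) and the 3 labelled Ded1 GE 16 min (59, 62 and 67), which makes 6 of the 74 samples in the series. They were taken by their labels, with earlier results of these data known. CRAC accounts for 56 samples of the series (Ded1, 2 other initiation factors and an untagged strain) and RNA-seq for 18. All Ded1 libraries came from BY4741 yeast, a haploid MATa strain with the his3Δ1, leu2Δ0, met15Δ0 and ura3Δ0 alleles, in which Ded1 carried an FH tag at its N terminus and was expressed from its own promoter. The tagged strain was made by genome editing and taken from single colonies. Cells grew at 30°C in medium with 2% glucose, the condition of the control libraries. For glucose withdrawal (GE) they were moved by filtration to medium with 2% glycerol and 2% ethanol and no glucose, and for heat shock to glucose medium warmed to 42°C. The labels do not say that the replicates were separate cultures, and per the study's methods, samples of the same protein were pooled once they had been eluted from nickel. The p-values therefore measure the spread between these libraries, which may be technical.

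Ded1 is a DEAD-box RNA helicase that unwinds structure in the 5′ untranslated regions of mRNAs while the small ribosomal subunit scans for a start codon. It works beside eIF4A, a helicase of the cap-binding complex, and eIF4B, a cofactor of eIF4A. Both stresses shut down bulk translation in budding yeast, and heat shock lowers the mRNAs of the ribosome and induces those of protein chaperones. In CRAC, ultraviolet light of 254 nm links a tagged protein to the RNA it touches, and the RNA fragments left on the purified protein are sequenced. A read count on an mRNA thus depends both on how much of that mRNA was in the cells and on how often Ded1 lay on it. Counts were expressed as reads per 1000000 mRNA reads of the library (RPM), so that each value is a share of the mRNA reads and a rise of some mRNAs lowers the shares of the others. In such bulk libraries, a change in fewer cells and a smaller change in every cell cannot be told apart.

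The heat shock libraries held 1452822 to 2613844 counted reads, of which 682343 to 1123874 lay on mRNAs, and the glucose withdrawal libraries 1509232 to 4385132, with 827316 to 1320005 on mRNAs. Pearson's r of log2 RPM (with 5 added) was 0.811 to 0.893 among the heat shock libraries, 0.817 to 0.913 among the glucose withdrawal libraries and 0.487 to 0.656 between the conditions, across mRNAs, which are not independent replicates. The 4 untagged libraries held 129 to 12113 mRNA reads, at most 1.78% of the smallest library compared. Libraries 60, 63, 59 and 62 belong with an earlier set of library numbers (57 to 63) and 68 and 67 with a later one (65 to 70), which differ in mRNA reads per cDNA (1.16 to 1.18 against 1.23 to 1.26). Library 67 stood apart from the other glucose withdrawal libraries in its summed reads on the stress and trehalose lists. All 5 genes specific to MATa cells, MFA1, MFA2, STE2, BAR1 and AGA2, had reads in both conditions. In heat shock library 68, however, MFA2 and AGA2 had 0 reads and MFA1 had 1. The MATalpha gene STE3 was not free of reads, with 50, 168 and 26 after heat shock against 0, 3 and 6 after glucose withdrawal. No reads fell on the deleted LEU2, URA3 and MET17 (MET15) genes in these 6 libraries. HIS3, of which the his3Δ1 allele keeps a part, had 20, 6 and 5 reads after heat shock against 74, 193 and 100 after glucose withdrawal.

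The distribution of Ded1 reads over mRNAs differed between the 2 stresses. In edgeR's quasi-likelihood test over all 13 Ded1 libraries, with Benjamini-Hochberg adjustment over 5799 mRNAs, 332 mRNAs had more Ded1 reads after heat shock than after glucose withdrawal (5.73% of those tested) and 851 had fewer (14.7%), at an adjusted p below 0.05. A difference of at least 4-fold was reached by 193 of the higher and 641 of the lower mRNAs. The median log2 difference of all mRNAs, heat shock minus glucose withdrawal, was -0.15. The libraries of the 2 groups did not overlap for 1163 of the called mRNAs, 331 higher and 832 lower, where 39.9% of all mRNAs tested had groups that did not overlap. Calls rose with depth, from 8.14% of the 2077 mRNAs with a mean under 50 reads to 51.3% of the 1028 mRNAs with 200 or more. Scaling changed the balance of the calls: they were higher for 28.1% of the called mRNAs with mRNA reads as the library size, 38.5% with TMM factors (458 higher and 733 lower, median 0.06) and 43.0% with DESeq2 (641 higher and 850 lower, median 0.09). Without library 59 the calls were 216 higher and 714 lower, without 62 they were 201 and 708, and in the earlier library set alone 670 and 1059. No mRNA called here was called in the opposite direction in any of these settings.

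**Figure D1:**
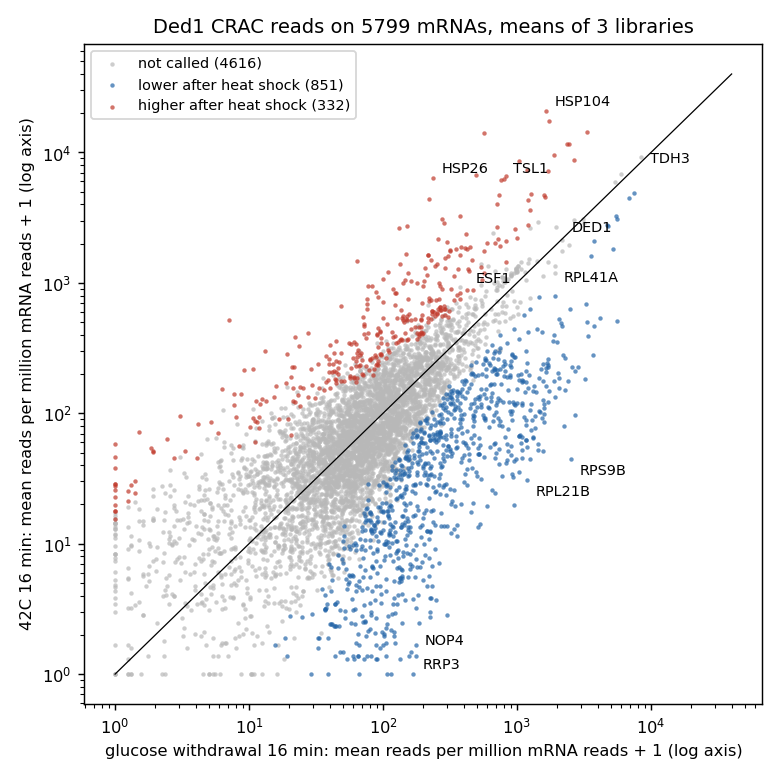
Mean Ded1 RPM (plus 1, both axes logarithmic) of the 3 glucose withdrawal libraries (x) and the 3 heat shock libraries (y), 1 point for each of 5799 mRNAs, with the line of equal values. Red points are the 332 mRNAs called higher after heat shock and blue points the 851 called lower, and DED1 and TDH3 lie near the line.

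The mRNAs of ribosomal proteins lost reads together. Of the 81 mRNAs for proteins of the large cytoplasmic ribosomal subunit, 79 were lower after heat shock and 0 higher, with a median log2 difference of -3.55. Of the 56 for the small subunit 55 were lower and 0 higher, with a median of -3.30. Summed over the large subunit, Ded1 values were 16765, 15652 and 10599 RPM in heat shock libraries 60, 63 and 68 against 116189, 115544 and 83125 in glucose withdrawal libraries 59, 62 and 67. The small subunit gave 10291, 9393 and 4946 against 86253, 87788 and 58923. Every heat shock library was thus far below every glucose withdrawal library on both lists. RPS9B, a small subunit protein, had 55.8, 24.9 and 51.3 RPM against 3025, 2398 and 2144, a log2 difference of -5.85 ± 0.34 (SE, adjusted p = 1.35e-09). For RPL21B of the large subunit the values were 27.9, 27.6 and 33.7 against 1326, 1073 and 1148. RPP0, the core of the ribosomal stalk, differed less, from 3718, 3786 and 3214 to 1594, 1641 and 1586, a log2 difference of -1.15 ± 0.20 (adjusted p = 0.000172).

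The 3 ribosomal protein mRNAs not called lower, named after their values were seen, were RPL41A, RPL41B and RPS28B. RPL41A and its near copy RPL41B encode the shortest ribosomal protein. RPL41A had 1399, 1356 and 1306 RPM after heat shock and 2233, 1689 and 1846 after glucose withdrawal (log2 difference -0.51 ± 0.21, adjusted p = 0.0940), and RPL41B had 1686, 1378 and 1272 against 1843, 1460 and 1841 (-0.25 ± 0.22, adjusted p = 0.497). RPS28B gave 279, 370 and 114 against 227, 342 and 95.5, so that its groups overlapped. Its protein is known to bind a hairpin at the end of its own mRNA. Most yeast ribosomal proteins have 2 near-identical genes, and since the authors assigned a read that matched several places equally well to a random one, values of the members of such a pair are uncertain. The mitochondrial ribosome, which has its own proteins, differed less than the cytoplasmic one, in the same direction. Of its 66 mRNAs, 50 had a negative and 16 a positive difference, with a median of -0.53 beside -0.15 for all mRNAs. Called lower was 1 (MRPL7, -1.97 ± 0.59, adjusted p = 0.0203) and higher 0. That is 1.52% of the list called lower, beside 14.7% of all mRNAs. MRPL7 was not called without library 60, 63 or 67.

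Ribosome biogenesis mRNAs, which encode the factors that make and process ribosomal RNA, showed the lowest median of the lists, -4.40. Of 148 tested (149 on the list), 126 were lower and 1 was higher. The summed values were 3280, 2823 and 2689 RPM after heat shock against 25868, 21639 and 16471 after glucose withdrawal. On several of these mRNAs Ded1 reads were all but absent after heat shock. RPF2, which places the 5S particle in the large subunit, had 0 reads in all 3 heat shock libraries against 168, 105 and 71.3 RPM after glucose withdrawal, so it was at least 106-fold lower (with a floor of 3 reads over the group). NOP4, a nucleolar factor of the large subunit, had 1.12, 0 and 0 against 237, 142 and 146, and NOC2, which escorts pre-ribosomes out of the nucleolus, had 1.12, 2.67 and 1.47 against 279, 227 and 160. NOP56, a core protein of box C/D snoRNPs, kept more, with 27.9, 22.2 and 24.9 against 753, 592 and 604, a log2 difference of -4.69 ± 0.35 (adjusted p = 8.44e-09). In all, 51 mRNAs had at most 3 reads over the 3 heat shock libraries together and a mean of at least 20 after glucose withdrawal. Of them, 26 were on the ribosome biogenesis list, whereas 13 mRNAs showed the reverse.

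The exception was ESF1, a nucleolar protein needed for processing of the small subunit's RNA. It had 858, 906 and 881 RPM after heat shock against 493, 393 and 371 after glucose withdrawal, a log2 difference of 1.07 ± 0.26 (adjusted p = 0.00483), and it was called higher in each of the 14 other settings in which the fit was run. Its mRNA level in wild-type cells differed by -0.77 (log2, edgeR adjusted p = 0.00198) relative to all mRNA reads. On that scale the median over all mRNAs was -0.64 and 63.6% were called lower, so ESF1 lay near the typical mRNA. With TMM factors that median was -0.10.

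Other mRNAs of the translation machinery were lower too. Of 31 mRNAs of translation initiation factors 23 were lower and 0 higher (median -2.16), and of 20 of elongation and termination factors 13 were lower and 0 higher (median -1.16). TIF3, which encodes eIF4B, had 26.8, 24.9 and 29.3 RPM after heat shock against 513, 439 and 305 after glucose withdrawal (log2 difference -3.96 ± 0.37, adjusted p = 1.86e-07). TIF4631, the scaffold eIF4G, had 50.2, 49.8 and 46.9 against 603, 747 and 741. TIF1 and TIF2, which both encode eIF4A and share most of their sequence, had log2 differences of -2.43 ± 0.31 and -2.53 ± 0.27. YEF3, the fungal elongation factor that empties the ribosome's exit site, had 621, 448 and 317 against 3877, 4074 and 3224. DED1, the mRNA of the tagged protein itself, was not called, with 2428, 2329 and 1690 against 2162, 2979 and 1373 and a log2 difference of -0.02 ± 0.29 (adjusted p = 0.982). Its paralog DBP1 had 44.6, 65.8 and 114 against 12.9, 17.4 and 42.3, groups that did not overlap but that were not called (1.63 ± 1.07, adjusted p = 0.331). TEF1 and TEF2, which encode the same protein, eEF1A, fell by less than most of the list, TEF2 from 5671, 5495 and 5415 to 3503, 3088 and 3205 (-0.76 ± 0.19, adjusted p = 0.00497). TEF2 was not called when scaled to all counted reads or with TMM factors.

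Biosynthetic mRNAs also had fewer Ded1 reads after heat shock. Of 79 mRNAs for amino acid synthesis 51 were lower and 0 higher (median -1.84), and of 30 for purine and pyrimidine synthesis 22 were lower and 1 was higher (median -2.31). ILV3, an enzyme of branched-chain amino acid synthesis, had 32.3, 42.7 and 51.3 RPM after heat shock against 1000.4, 918 and 908 after glucose withdrawal (log2 difference -4.49 ± 0.32, adjusted p = 5.75e-09). LEU9, which starts the leucine branch, had 6.69, 16.0 and 8.79 against 449, 404 and 220, and MET6, the methionine synthase, 219, 168 and 262 against 1471, 1520 and 1559. URA1 of pyrimidine synthesis had 44.6, 66.7 and 8.79 against 788, 595 and 798, and GUA1, the GMP synthase, 95.9, 80.1 and 58.6 against 554, 642 and 642. The groups did not overlap for any of these genes. The 1 purine gene that was higher was ADE16, with a log2 difference of 1.11, named after its value was seen.

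Membrane and wall genes were split. Of 26 mRNAs for ergosterol synthesis 10 were lower and 1 was higher (median -0.96). The higher one was DAP1, a heme-binding protein that supports sterol synthesis, which had 1421, 1010 and 1778 RPM after heat shock against 126, 88.6 and 185 after glucose withdrawal (3.40 ± 0.32, adjusted p = 2.08e-07). NCP1, the reductase that feeds electrons to sterol enzymes, had 69.1, 63.2 and 13.2 against 311, 302 and 373. Of 48 cell wall mRNAs 20 were lower and 6 higher (median -0.88). GAS1, a glucan-remodelling enzyme, had 98.1, 93.4 and 45.4 against 717, 803 and 793 and FKS1, a glucan synthase, 283, 185 and 262 against 1178, 1111 and 1251. The 6 that were higher, SPI1, YGP1, TIP1, HSP150, YPS1 and SED1, had log2 differences of 1.14 to 2.74, and include wall proteins known to be induced by stress. Of 10 histone mRNAs 4 were lower (median -0.98), but this count was 1 with TMM factors or without library 62 and 2 without library 59, when scaled to all counted reads or with only the 6 libraries compared.

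The cytosolic chaperones had the highest median of the 22 lists plotted. Of 37 mRNAs 24 were higher after heat shock and 5 lower, with a median of 2.09. Together they held 158305, 163333 and 143769 RPM in the heat shock libraries against 28449, 22837 and 38050 after glucose withdrawal. HSP104, the disaggregase, had 19745, 21458 and 21284 against 1587, 923 and 2398, a mean 12.7-fold higher (log2 difference 3.67 ± 0.34, adjusted p = 1.22e-07). HSP26, a small heat shock protein, had 7210, 7344 and 4502 against 231, 96.2 and 375, and HSP12, a membrane-associated stress protein, 4247, 4314 and 4643 against 180, 137 and 341. The members of the SSA family of Hsp70 and of the Hsp90 pair (HSC82 and HSP82) were called higher as well, although reads of these near copies cannot be assigned with certainty. The 5 chaperones that were lower, named after their values were seen, were SSB1, SSB2, SSZ1, ZUO1 and CNS1. Of these, SSB1, SSB2, SSZ1 and ZUO1 act on nascent chains at the ribosome, and CNS1 is a co-chaperone of Hsp90. SSB1 had 200, 131 and 133 against 2028, 2087 and 2026 (-3.73 ± 0.27, adjusted p = 6.58e-09).

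Of 8 mitochondrial chaperones 5 were higher and 1 lower (median 1.71), and 0 lower when scaled to all counted reads. HSP60, the matrix chaperonin, had 4260, 3662 and 5052 RPM against 1161, 792 and 1660, and its partner HSP10 had 2141, 1964 and 1177 against 252, 409 and 288. SSC1, the matrix Hsp70, had 4869, 4800 and 4514 against 1536, 1687 and 1539 (1.57 ± 0.21, adjusted p = 1.35e-05). MGE1, the nucleotide exchange factor of SSC1, was lower, with 63.6, 174 and 167 against 384, 352 and 332.

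The general stress response, the genes that many stresses induce through Msn2 and Msn4, was higher after heat shock in 41 of 66 mRNAs and lower in 0, with a median of 1.90. This list shares members with those of the chaperones and of trehalose and glycogen. The summed values were 76955, 81636 and 76035 RPM against 12771, 11264 and 28765, and the highest of the glucose withdrawal libraries was 67. ALD3, an aldehyde dehydrogenase, had 724, 867 and 1243 against 69.0, 56.1 and 122 (3.52 ± 0.42, adjusted p = 2.63e-06), and SIP18, a desiccation-induced hydrophilin, had 33.5, 9.79 and 128 against 0 in all 3, at least 51.0-fold higher.

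Genes of trehalose and glycogen, the storage carbohydrates of yeast, also had more Ded1 reads after heat shock, with a wide spread between libraries. Of 23 mRNAs 10 were higher and 0 lower (median 1.11). TSL1, a subunit of the trehalose synthase complex, had 5410, 6124 and 7320 against 617, 330 and 1440 (2.98 ± 0.41, adjusted p = 1.41e-05), NTH1, which breaks trehalose down, had 1400, 1156 and 1454 against 191, 192 and 349, and TPS3, another synthase subunit, had 587, 612 and 891 against 179, 192 and 216. The sum over the list was 21328, 24295 and 29564 after heat shock against 5287, 4145 and 15286, and library 67 was nearer to the heat shock libraries than to its own group. The count was 18 in the earlier library set alone, but 5 without library 59 and 6 without library 62. The median was 2.35 without library 67, 2.25 in the earlier library set and 0.77 without library 59.

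**Figure D2:**
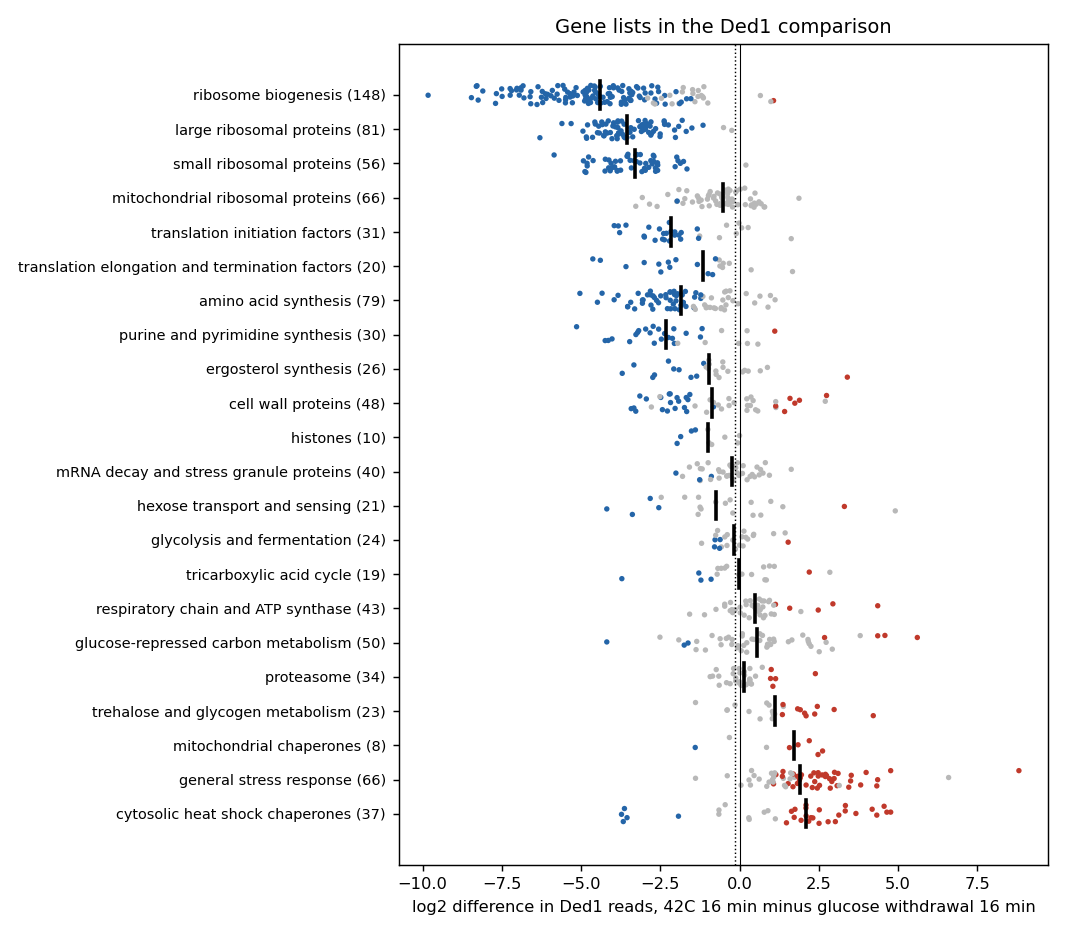
Log2 difference in Ded1 reads, heat shock minus glucose withdrawal, for the members of 22 gene lists (number tested in parentheses), 1 point per mRNA. Red points are called higher, blue points called lower and grey points not called, black bars are list medians and the dotted line is the median of all mRNAs, -0.15. Ribosome biogenesis and ribosomal proteins lie furthest to the left, and chaperones and the general stress response to the right.

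Genes of carbon metabolism did not move as 1 block. Of 50 mRNAs repressed by glucose, which serve respiration, gluconeogenesis and other sugars, 4 were higher after heat shock and 3 lower (median 0.55), against 16 higher and 5 lower in the earlier library set alone, 8 higher and 3 lower without library 67 and 2 higher and 3 lower without library 62. In the main fit 8% were higher and 6% lower, beside 5.73% and 14.7% of all mRNAs. SIP4, an activator of gluconeogenic genes, had 361, 316 and 214 RPM against 23.0, 5.30 and 8.46 (4.59 ± 0.81, adjusted p = 0.000266), and GAL10, an enzyme of galactose breakdown, 80.3, 36.5 and 35.2 against 0, 1.52 and 1.21. MTH1, which represses hexose transporter genes when glucose is low, was lower, with 16.7, 21.4 and 17.6 against 201, 129 and 697 (-4.19 ± 0.88, adjusted p = 0.00146).

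Of 21 mRNAs for hexose transport and sensing 4 were lower and 1 was higher, beside 14.7% and 5.73% of all mRNAs, so the counts do not set the list apart. The median of -0.75 became -0.13 without library 67 and, with 4 higher and 5 lower of 20, -0.21 in the earlier library set alone. HXT1 and HXT3, transporters used at high glucose, had 65.8, 36.5 and 13.2 against 221, 145 and 461 and 65.8, 65.8 and 107 against 383, 282 and 729. HXT5, a transporter expressed in slow-growing and stressed cells, was the higher one, with 867, 950 and 752 against 53.4, 25.0 and 184 (3.31 ± 0.68, adjusted p = 0.00115). These transporters are alike in sequence, which makes their reads less certain. Library 67 again had the highest value of its group in HXT1, HXT3, HXT5 and MTH1. Of 24 mRNAs of glycolysis and fermentation, 4 were lower (CDC19, FBA1, GPM1 and PDC1, named after their values were seen, at -0.61 to -0.79) and 1 higher (GLK1, 1.53 ± 0.37). At 16.7% and 4.17% of the list, these counts are close to the 14.7% and 5.73% of all mRNAs. The lower count was 0 with TMM factors, DESeq2, all counted reads or without library 67 or 68, 1 without library 62 and 2 without 63, and the list median of -0.17 became 0.05 with TMM factors, 0.07 with DESeq2 and 0.02 without library 68. GLK1, a glucokinase, overlaps YCL042W on the same strand, so that reads of the 2 cannot be separated there. TDH3, the main GAPDH, differed by 0.11 ± 0.19 (adjusted p = 0.745).

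The tricarboxylic acid cycle had 1 mRNA higher and 4 lower of 19 (median -0.02, and 0.20 with 5 higher and 3 lower with TMM factors). In the main fit these are 5.26% and 21.1%, beside 5.73% and 14.7% of all mRNAs. MDH1, the mitochondrial malate dehydrogenase, had 475, 550 and 838 against 84.7, 123 and 198 (2.20 ± 0.50, adjusted p = 0.00264). ACO1, the aconitase of the cycle, had a log2 difference of -0.90 ± 0.25 that was called lower, also in 7 of 14 other settings. Of 43 mRNAs of the respiratory chain and ATP synthase 5 were higher and 0 lower (median 0.50). INH1, an inhibitor of ATP hydrolysis, had 172, 313 and 163 against 32.2, 18.2 and 33.8 (2.94 ± 0.75, adjusted p = 0.00696). This count was 1 without library 62, 2 without 59, 3 without 63 or 68 or with all counted reads, 9 with DESeq2 and 13 in the earlier library set alone.

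Of 34 mRNAs on the proteasome list 5 were higher and 0 lower (median 0.15), a count that was 1 without library 67, 2 without 62 or 68 and 3 without 63 or with all counted reads. The largest difference was that of RPN4, the transcription factor of the proteasome genes, which had 1638, 1527 and 1627 RPM against 265, 250.0 and 399 (2.39 ± 0.38, adjusted p = 9.09e-05). The others, RPN5, PRE6, RPN3 and SCL1, differed by 0.98 to 1.14. Of 40 mRNAs for proteins of mRNA decay and stress granules 3 were lower and 0 higher (median -0.24), namely STM1, which preserves idle ribosomes (-2.01 ± 0.30), the RNA-binding protein PUB1 (-1.26 ± 0.33) and the tRNA synthetase GUS1 (-0.89 ± 0.28). The 7.5% called lower is below the 14.7% of all mRNAs. GUS1 was called in 5 of 14 other settings, and STM1 alone remained with all counted reads.

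**Figure D3:**
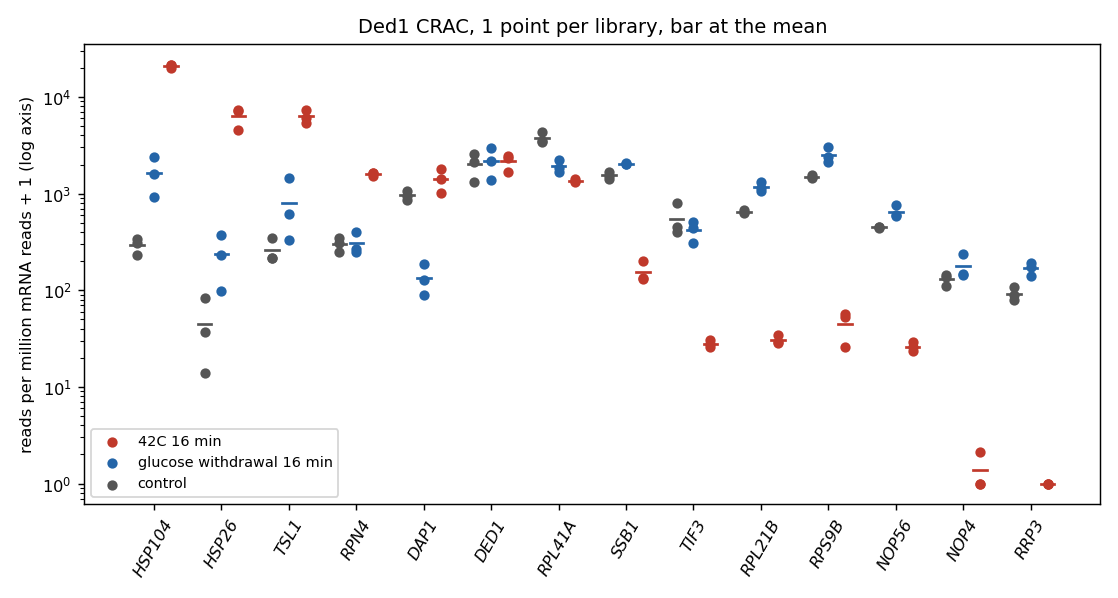
Ded1 RPM (plus 1, logarithmic axis) on 14 mRNAs, 1 point per library with a bar at the mean, for 3 control (grey), 3 glucose withdrawal (blue) and 3 heat shock libraries (red). DED1 overlaps in all 3 conditions, HSP104 separates them, and SSB1, TIF3 and the mRNAs to its right have their 3 lowest points after heat shock.

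The largest differences were selected among called mRNAs with at least 20 mean reads in the higher group and no overlap between the groups, 15 in each direction. At the lower end 10 of the 15 were on the ribosome biogenesis list (RPF2, NOP4, TSR1, PUF6, RRP36, UTP8, RRS1, DBP3, ALB1 and BRX1). The other 5 were RRP3, RPA34, NCS2, ADF1 and RRT14. RRP3, a helicase of ribosomal RNA processing, had 0 reads in all 3 heat shock libraries against 191, 139 and 172 RPM, at least 148-fold lower. RPA34, a subunit of RNA polymerase I, had 0 in all 3 against 131, 115 and 74.9, at least 99.2-fold lower. NCS2, which acts in thiolation of tRNA, was at least 61.0-fold lower, RRP36 at least 36.8-fold and ADF1 at least 21.2-fold, all of them without a read after heat shock.

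At the upper end most of the 15 were mRNAs with few or no reads after glucose withdrawal, which leaves their size uncertain. YER053C-A had 448, 634 and 463 RPM against 0.920, 7.58 and 9.67 (6.40 ± 0.83, adjusted p = 7.78e-06). AIM26 had 63.6, 93.4 and 54.2 against 0, 1.52 and 0. YFL015C was at least 50.3-fold, YHL019W-A at least 38.3-fold, YJR005C-A at least 31.5-fold and PCH2, a checkpoint protein of meiosis, at least 26.3-fold higher, each with 0 reads in all 3 glucose withdrawal libraries. The rest were REC114 and SPR28, which act in meiosis and sporulation, the putative reductase FRE5, SIP18, GAL10, SUE1, ECM8, YLL037W and YBR116C. Of these 15, YER053C-A, AIM26, YHL019W-A and GAL10 were called in each of the 14 other settings, and SPR28, REC114, YLL037W and YJR005C-A in 7. STE3, the receptor that MATalpha cells use for the pheromone of MATa cells, also had more reads after heat shock, 55.8, 149 and 38.1 RPM against 0, 2.27 and 7.25 (4.68 ± 1.59, adjusted p = 0.0419), and was not called without library 59, 60, 62 or 63. The other MATalpha genes, MF(ALPHA)1 and MF(ALPHA)2, had 3 and 1 reads in all 3 heat shock libraries together and 0 after glucose withdrawal, while 4 of the 5 MATa genes were lower after heat shock (STE2 with a log2 difference of -3.21 ± 0.34).

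To place both stresses against unstressed cells, the same fit gave each contrast to the 3 control libraries, which the 2 contrasts share. For ribosome biogenesis the median log2 difference was -4.19 for heat shock minus control and 0.07 for glucose withdrawal minus control. The large subunit gave -3.30 and 0.10 and the small subunit -3.25 and 0.15. Initiation factors gave -1.84 and 0.11. On these lists the glucose withdrawal libraries lay near the control. The chaperones gave 3.34 and 0.94, the general stress response 2.78 and 0.81, and trehalose and glycogen 2.72 and 1.26. Over all mRNAs, 350 were called higher and 1073 lower for heat shock minus control, and 72 and 60 for glucose withdrawal minus control.

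How far the mRNA level followed the same contrast was asked from RNA-seq of wild-type cells, not the tagged strain, with 3 heat shock and 2 glucose withdrawal libraries of 16 min. These had 27599464 to 31581919 and 22062198 to 32792466 mRNA reads. Of 6163 mRNAs 669 were at a higher level after heat shock (10.9%) and 3921 at a lower one (63.6%) relative to all mRNA reads, with a median log2 difference of -0.64. With TMM factors the median was -0.10 and the calls were 1667 higher and 2372 lower. Both scales are relative, so neither gives a change in the absolute amount of an mRNA. Of the 332 mRNAs with more Ded1 reads after heat shock, 205 had a higher mRNA level, 32 a lower one and 95 were not called. Of the 851 with fewer Ded1 reads 824 had a lower level, 0 a higher one and 27 were not called. The median difference in level was 0.69 for the first set, whose median Ded1 difference was 2.23, and -1.77 for the second, whose median Ded1 difference was -2.89. Across the 5773 mRNAs in both assays Pearson's r of the 2 log2 differences was 0.69 and Spearman's rho 0.67, as a description over genes that share the same libraries.

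**Figure D4:**
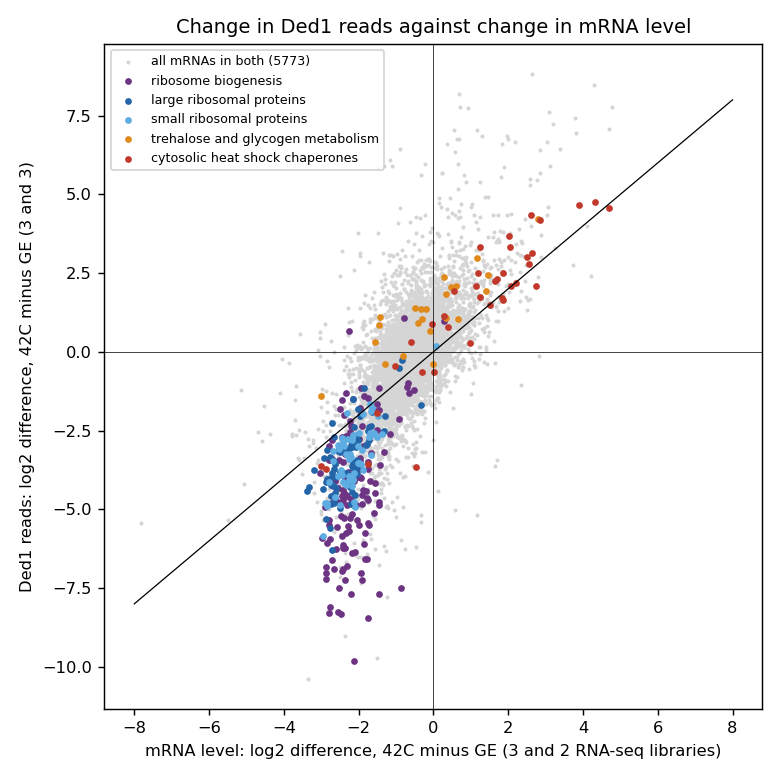
Log2 difference, heat shock minus glucose withdrawal, in wild-type mRNA level (x, 3 and 2 RNA-seq libraries) and in Ded1 reads (y, 3 and 3 CRAC libraries) for 5773 mRNAs, with the line of equal differences. Ribosome biogenesis (purple) lies mostly below the line with a median level difference of -2.19, ribosomal proteins (blue) around and below it, chaperones (red) around it, and trehalose and glycogen genes (orange) mostly above it.

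The difference between both changes was tested as the interaction of assay and condition with limma on voom values. Of 5773 mRNAs 322 changed more toward heat shock in Ded1 reads than in level (5.58%) and 171 more toward glucose withdrawal (2.96%), with a median of 0.39. With TMM factors in both assays the median was 0.00 and the calls were 86 and 214, so that 65.3% of the calls were positive with mRNA reads as the library size and 28.7% with TMM factors. Of the positive calls 86 of 322 were also called with TMM factors, and of the negative ones 154 of 171. Leaving out library 59, 60, 62 or 63 lowered the total of 493 calls to 107, 261, 106 and 185.

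Ribosome biogenesis mRNAs lost more Ded1 reads than level. Their median interaction was -2.57, and 61 of 148 were called negative and 1 positive (ESF1, 1.87, adjusted p = 0.00645), with 61 negative also under TMM factors, of which 59 were the same mRNAs. ESF1 was not called with TMM factors (adjusted p = 0.0846). The negative count was 22 without library 59, 27 without 62, 30 without 63 and 31 without 68. RPA34 had 0 Ded1 reads in all heat shock libraries but mRNA levels of 21.8, 19.4 and 18.2 RPM after heat shock against 55.7 and 57.0 after glucose withdrawal (level -1.51, interaction -6.06 ± 0.70, adjusted p = 0.00201). NOP4 had levels of 24.6, 22.9 and 18.9 against 74.0 and 74.5 (interaction -5.95 ± 0.76) and ALB1 9.56, 7.61 and 6.42 against 15.1 and 13.4 (-5.82 ± 0.78). Their mRNAs were thus detected in all RNA-seq libraries of heat shocked cells. Since limma works on log values with a small added count, these differences are set partly by that count where Ded1 reads are 0. For the large subunit 15 of 81 and for the small subunit 18 of 56 were negative, with medians of -1.12 and -1.34, and these counts were 3 to 8 and 3 to 7 without library 59, 60, 62, 63 or 68 and 35 and 28 without 67.

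On the positive side, trehalose and glycogen genes differed more in Ded1 reads than in level. Their median Ded1 difference was 1.11 (2.35 without library 67) and their median level difference -0.08, with 9 mRNAs at a higher and 9 at a lower level, and 13 of 23 had a positive interaction (median 1.78). With TMM factors 5 remained, GDB1, GLG1, GPH1, PGM2 and TPS3, and the count was 1 without library 59 or 62 and 7 without 63. TPS3 had a level difference of 0.32 and an interaction of 1.48. In the general stress response 22 of 66 were positive and 1 negative, and 6 and 2 with TMM factors, and the positive count was 2 without library 59 or 62, 14 without 60 and 10 without 63. The 6 were the same GDB1, GLG1, GPH1, PGM2 and TPS3, and HSP12, which is also on the chaperone list. The 3 lists are therefore not separate observations. Among the chaperones 6 of 37 were positive and 1 negative, and HSP104 (1.80) and HSP12 (1.93) were the 2 also called with TMM factors. The positive count of the chaperones was 2 without library 59 or 62 and 12 without RNA-seq library I. RPN4 had an interaction of 1.80 (adjusted p = 0.00524, and 0.0637 with TMM factors) and DAP1 of 2.50 (adjusted p = 0.00595, and 0.0330 with TMM factors). Among the single genes with the largest interaction, RGI2 had 135, 166 and 98.2 Ded1 RPM after heat shock against 13.8, 7.58 and 21.8, while its level was 6.21, 5.72 and 16.5 against 49.5 and 53.2 (interaction 5.94 ± 1.01, adjusted p = 0.00598). FHN1, a plasma membrane protein, had 282, 225 and 138 against 6.44, 6.06 and 12.1 at levels of 28.8, 31.8 and 39.0 against 28.4 and 31.3 (4.58 ± 0.69, adjusted p = 0.00401).

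The same contrast was made for eIF4B and eIF4A to ask where Ded1 differed from them. These libraries were shallower, with 46231 to 667078 mRNA reads for eIF4B after heat shock (4 libraries) and 124027 to 255300 after glucose withdrawal (3), and 31887 to 190866 and 109022 to 159255 for eIF4A (4 and 4). The medians for ribosome biogenesis were -4.40 for Ded1, -3.76 for eIF4B and -3.49 for eIF4A. For the large subunit they were -3.55, -2.92 and -4.04, and for the chaperones 2.09, 1.36 and 1.14. Of all mRNAs tested, eIF4B had 12% called lower and 5.96% called higher, and eIF4A 9.48% and 6.33%. Of the 851 mRNAs lower in Ded1 503 were also called lower in eIF4B (59.1% of the Ded1 list and 72.5% of the eIF4B list) and 3 higher, and 765 had the same sign. Of 330 higher in Ded1 and tested in eIF4B 110 were also called higher (33.3% and 31.9% of the lists), 0 lower, and 300 had the same sign, a sign shared by 66.5% of all 5728 mRNAs tested in both. For eIF4A 297 of 851 were called lower (34.9% and 55.1% of the lists) and 4 higher, and 58 of 329 higher (17.6% and 16.1%) and 3 lower.

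The test of the difference between proteins, the interaction of protein and condition in edgeR's quasi-likelihood fit, called 10 of 5784 mRNAs between Ded1 and eIF4B (0.173%). The difference, Ded1 change minus eIF4B change, was positive for 1 of them and negative for 9, which does not give the direction in Ded1 itself, and an unadjusted p below 0.05 was reached by 624. Without eIF4B library 27 or Ded1 library 60 the count was 1, without 62 it was 2, without 59 or 68 it was 3, without 67 it was 6, and without eIF4B library 75 it was 20. Between Ded1 and eIF4A 0 of 5688 were called (0%) by edgeR, also 0 with TMM factors or all counted reads, with 883 at an unadjusted p below 0.05, and 10, 2 and 3 were called without eIF4A library 15, 16 or 83. At these depths, a p that misses the threshold does not show that the proteins act alike. The mRNA called between Ded1 and eIF4B in each of the 15 other settings was HMS2, which encodes a protein related to the heat shock factor. Ded1 had 11.2, 21.4 and 2.93 RPM on it after heat shock against 85.6, 62.1 and 94.3 after glucose withdrawal, whereas eIF4B had 0, 584, 43.1 and 64.5 against 0, 0 and 16.1 (interaction -7.80 ± 1.40, adjusted p = 0.00693). HMS2 overlaps YJR146W on the same strand.

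The composition of the libraries was compared with an exact two-sided permutation test over the 3 and 3 libraries, which cannot go below p = 0.1. The mRNA share of counted reads was 34.3%, 47.4% and 47.0% after heat shock and 34.9%, 30.1% and 54.8% after glucose withdrawal, 42.9% ± 7.44 against 39.9% ± 13.1 (SD, n = 3 each, exact permutation p = 0.9). The tRNA share was 43.4% ± 6.59 against 49.1% ± 13.4 (n = 3, exact permutation p = 0.6) and the rRNA share 9.26% ± 1.36 against 7.57% ± 0.656 (n = 3, exact permutation p = 0.3), with an adjusted value of 0.9 for all 3. The groups overlapped in each share, and library 67 had the highest mRNA share of the 6.

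Features other than mRNAs were tested in a fit of all features scaled to all counted reads. Of 1495, 80 were higher after heat shock (5.35%) and 18 lower (1.2%), and 329 reached p below 0.05 before adjustment. The total of 98 was 52 without library 59, 45 without 62, 59 without 63 and 63 without 68. Unannotated transcripts made up most of the higher calls, but they were also most of the 1495 features tested. Of 690 SUTs, stable transcripts of unannotated regions, 56 were higher and 5 lower (median log2 difference 1.41), and of 433 CUTs, cryptic transcripts that the nuclear exosome degrades, 19 were higher and 1 lower (median 1.07), where the median of all 1495 was 0.67. Beside the 5.35% of all 1495 called higher, the count of CUTs does not set them apart. SUTs held 0.904%, 1.20% and 1.14% of counted reads after heat shock against 0.272%, 0.243% and 0.528% after glucose withdrawal, without overlap, and 1.32% ± 0.126 (SD, n = 3) in the control. CUTs held 0.353%, 0.454% and 0.268% against 0.137%, 0.123% and 0.227%. The glucose withdrawal libraries were thus the low ones in Ded1 reads, below heat shock and control alike. In wild-type RNA-seq, SUTs held 0.775% and 0.663% of counted reads after glucose withdrawal against 0.494%, 0.498% and 0.606% after heat shock. CUTs held 0.203% and 0.173% there against 0.174%, 0.161% and 0.194%, so that these groups overlapped. ST6338 had 132, 133 and 75.0 reads per 1000000 counted reads against 1.28, 0 and 0, and ST1406 had 14.9, 39.2 and 64.7 against 0 in all 3, at least 105-fold higher.

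Of the structural RNAs, 5S ribosomal RNA, which RNA polymerase III makes, was higher after heat shock. Its 6 copies, whose reads cannot be assigned with certainty, held 34798, 22386 and 20522 reads per 1000000 counted reads against 8374, 5426 and 4800, a 4.18-fold higher mean, and 8914, 5523 and 2028 in the control libraries. The 3 copies tested, RDN5-1, RDN5-2 and RDN5-6, held these reads and were all called, with log2 differences of 2.01 to 2.26. The 2 copies of the 35S gene had 68634, 74429 and 56828 against 59597, 73168 and 75222. These counts hold the reads of the other mature cytoplasmic ribosomal RNAs as well as those of their precursor, which were not counted apart. snR6, the U6 RNA of the spliceosome, was called higher (1.41 ± 0.41, adjusted p = 0.0166), and 2 snoRNAs were called lower, snR61 (-3.07) and snR190 (-1.56). Of these, snR6 and snR190 were named after their values were seen.

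Of 281 tRNA genes 1 was higher and 10 lower. The lower ones included 9 of the 10 tested copies of the phenylalanine tRNA tF(GAA), which together with an untested copy held 717, 462 and 310 reads per 1000000 counted reads after heat shock against 2478, 1997 and 793 after glucose withdrawal and 783, 566 and 463 in the control. The mean was 3.54-fold higher after glucose withdrawal, and the lowest value of that group was library 67. These copies share their sequence, so that they count as 1 observation. The other calls were a lower tP(UGG)F and a higher tG(CCC)O, named after their values were seen.

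**Figure D5:**
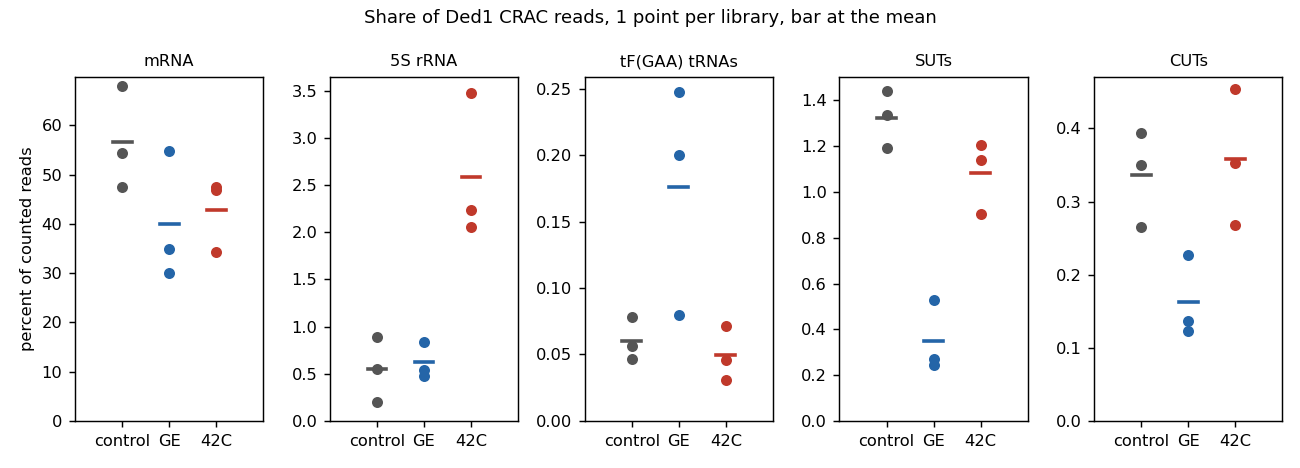
Share of all counted Ded1 reads (percent, separate axes from 0) on mRNAs, 5S rRNA, tF(GAA) tRNAs, SUTs and CUTs, 1 point per library with a bar at the mean, for 3 control, 3 glucose withdrawal (GE) and 3 heat shock (42C) libraries. mRNA shares overlap, 5S rRNA is higher after heat shock, tF(GAA) is higher after glucose withdrawal, and SUTs and CUTs are lower after glucose withdrawal than after heat shock.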

How the data were processed

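CRAC was done on tagged Ded1, eIF4A and eIF4B and on untagged cells, and RNA-seq on wild-type cells with 2% Schizosaccharomyces pombe RNA added. The RNA-seq libraries were made from poly(A)-selected RNA, unlike those of CRAC. The deposited files hold counts of reads per feature. For CRAC, the authors removed duplicate reads by their random nucleotides, aligned the rest with Novoalign, which assigned a read with several equal matches to a random one, and counted by feature in the sense direction. RNA-seq reads were aligned to both yeast genomes together and counted by strand. No column of fold changes was used.

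The counts were used as deposited. mRNAs were kept by filterByExpr (minimum count 10, minimum total 15) and tested with edgeR 4.0.16, a quasi-likelihood fit of 13 Ded1 libraries in 5 conditions with the summed mRNA reads as library size. The conditions were control, mock shift (cells moved to glucose medium), glucose withdrawal for 30 s, glucose withdrawal for 16 min, and heat shock. Levels were tested in the same way in 8 RNA-seq libraries, and the difference between binding and level with limma 3.58.1. Alternatives were TMM factors, DESeq2 1.42.0, all counted reads, no filter, only the 6 libraries, the library set as a term or the earlier set alone, each library left out and, chosen after seeing the data, cDNA counts. For mRNA levels, scaling to the S. pombe reads was a further alternative, whose result is not given here. Calls are at an adjusted p (Benjamini-Hochberg) below 0.05. Shares were compared by exact permutation. Intervals given as ± cover the error of the fit (SE) or the spread between libraries (SD). Python 3.11.15, pandas 2.3.3, scipy 1.17.1 and R 4.3.3 were used, and the scripts were tested on simulated data.

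The members and gene lists were chosen with earlier results of these data known. Genes were named by rule. The rule took the 15 largest differences in each direction among called mRNAs with at least 20 mean reads in the higher group and no overlap between groups, the 3 members of each list with the smallest adjusted p and the member with the most reads, and DED1, DBP1, TIF1, TIF2 and TIF3. For other features it took the 5 largest in each direction. 1 mRNA that the rule selects is not reported here. Features outside the rule are said to be so or were taken from the test they illustrate. A fold against a group without reads was computed against a floor of 3 reads over the group. 1 eIF4A library with conflicting labels was left out.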

Additional observations from a re-analysis of the deposited data

Results flagged for a closer look

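The 10 mRNAs whose change differed between Ded1 and eIF4B, heat shock minus glucose withdrawal, were found by the interaction of protein and condition in edgeR's quasi-likelihood test, with Benjamini-Hochberg adjustment over 5784 mRNAs. HMS2 (-7.80) is described in the report. For KTI11, which acts in diphthamide synthesis, the difference was -10.83 (adjusted p = 0.0217). Ded1 had 5.58, 14.2 and 8.79 RPM (reads per 1000000 mRNA reads) on it after heat shock against 64.4, 53.0 and 30.2 after glucose withdrawal, while eIF4B had 0, 130, 51.0 and 67.5 against 0 in all 3 libraries. The 2 proteins thus moved in opposite directions there.

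PSR2, a phosphatase of the plasma membrane, differed by -10.14 (adjusted p = 0.0181), and eIF4B had reads on it only after heat shock, 123 to 346 RPM in 4 libraries, whereas Ded1 had them in both stresses. A similar pattern was seen for TID3, a kinetochore protein (-7.22), and MIT1, an activator of filamentous growth (-5.64), with at most 3.92 eIF4B RPM after glucose withdrawal. For RLP24, a large subunit assembly factor (-7.75), Ded1 fell from 301, 230 and 147 to 0, 7.12 and 1.47, while eIF4B had reads in 1 of 3 glucose withdrawal and 2 of 4 heat shock libraries. SRO9, an RNA-binding protein with a La motif, gave -6.04, RPS29B of the small subunit -3.63 and SFT2, a Golgi protein, -4.84. eIF4B library 56, the shallowest of its group with 46231 mRNA reads, held the highest eIF4B value after heat shock for 6 of the 10 mRNAs, HMS2 (584 RPM), KTI11 (130), PSR2 (346), TID3 (584), SRO9 (844) and SFT2 (6770). Without this library 13 mRNAs were called, 8 of the 10 among them. Library 98, the deepest of the group with 667078 mRNA reads, held the highest value for 3 of the 10. It differed in composition, with 52.2% of counted reads on rRNA against 13.4% to 15.9% in the other eIF4B heat shock libraries. SOL2 was the 1 mRNA in the other direction (6.29), with 311, 337 and 903 eIF4B RPM after glucose withdrawal and at most 21.0 after heat shock. HMS2 was called in all 15 other settings, PSR2 in 13, TID3 in 10 and the others in 4 to 9.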

How the results depend on the processing

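No paired analysis was run, since the labels name no pairs of heat shock and glucose withdrawal libraries. The 2 library sets entered as a batch term, which gave 1235 Ded1 calls. The count of Ded1 calls, 1183, was 909 to 1100 when 1 library was left out, and 168 of the 332 higher and 603 of the 851 lower mRNAs were called in each of the 14 other settings, including cDNA counts, which were chosen after seeing the data. Of the 114 named and called mRNAs, 87 kept their call in all of these settings. The difference between binding and level gave 300 calls with TMM factors and 106 to 703 when 1 library was left out, against 493. The difference from eIF4B gave 4 calls with TMM factors and 1 to 20 when 1 library was left out, against 10, and that from eIF4A 0 to 10, against 0. Features other than mRNA gave 45 to 106 calls, against 98. The difference in mRNA share, 2.95 percentage points, was -1.97 without library 62 and 10.4 without library 67. The causes of these changes were not tested. Of mRNAs with fewer than 50 mean reads over the 6 libraries 8.14% were called, and of those with 200 or more 51.3%.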
